A study of Homo sapiens and Mus musculus with 56 samples.

Results

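The S100 calcium-binding proteins described here are S100A4, S100A6, S100A8, S100A9, S100A10, S100A11, S100A12 and S100P, taken by gene symbol from the probe sets of Affymetrix expression arrays. All 8 genes were found among the 19775 genes with a probe set of their own on the human arrays, on 11 probe sets, and 5 of them (S100a4, S100a6, S100a8, S100a9 and S100a10) among 18193 genes on the mouse arrays, on 7 probe sets. Mouse S100a11 shares its probe set with other symbols and was not analysed here, and no mouse probe set carried the symbols of S100A12 or S100P. The series asked how leukaemia cells respond to inhibition of DOT1L, a histone methyltransferase, and of menin, a cofactor of KMT2A (MLL) fusion proteins, with 56 arrays in 20 groups over 5 cell models. EPZ004777 is the DOT1L inhibitor and MI-2-2 (MI2-2 in the protocol text) the menin inhibitor, and controls received DMSO. RS4;11 and SEM, B-precursor lines that carry the KMT2A-AFF1 fusion, and REH, a B-precursor line that carries no KMT2A fusion, received 3 µM EPZ004777, 10 µM MI-2-2, both compounds or DMSO for 6 days. MOLM-13, an acute myeloid leukaemia line carrying KMT2A-MLLT3, and MLL-AF9 transformed mouse leukemic cells, a primary culture grown with interleukin-6, interleukin-3 and stem cell factor, received 3 µM of either compound, both or DMSO for 4 days. The doses in the combination are not given separately. Every group had 3 arrays, except the DMSO group of RS4;11 and the DMSO, MI-2-2 and combination groups of SEM, which had 2, and precision is limited by these numbers. The replicates are called biological in the design text, so p-values measure the spread between those arrays.

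S100 proteins are small proteins with paired EF-hand motifs that bind calcium and then expose a surface for partner proteins. S100A8 and S100A9 form calprotectin, an abundant cytosolic complex of neutrophils and monocytes that sequesters zinc and manganese and, once released, acts on TLR4 and RAGE, and S100A12 is a related granulocyte protein. S100A4 binds non-muscle myosin, S100A6 binds CACYBP, S100A10 forms a complex with annexin A2 that also contacts AHNAK, S100A11 binds annexin A1, and S100P binds ezrin and RAGE. In the RefSeq gene order, S100A9, S100A12 and S100A8 are consecutive protein-coding genes on chromosome 1, S100A10 and S100A11 are neighbours, S100A6 and S100A4 lie with S100A5 between them, and S100P is on chromosome 4.

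The promoter windows of S100A8, S100A9, S100A12 and S100P are shown because S100A8, S100A9 and S100A12 are consecutive genes that were all called higher in MOLM-13 with EPZ004777, while S100P was not. S100A4, S100A6, S100A10 and S100A11 were called higher there too, so the windows shown do not set genes that rose against genes that did not. S100A12 was bright enough to be tested in MOLM-13 only through treated arrays, so its rise is part of why it was tested. The windows run from 250 bases before to 50 bases after the start of transcription and come from RefSeq, build GRCh38.p14, printed 5′ to 3′ on the strand of the gene, with motif matches in capitals. The S100A8 window is the second of 3 annotated starts, at chr1:153391024-153391323 on the minus strand. The S100A9 window lies at chr1:153357604-153357903 on the plus strand, the S100A12 window at chr1:153375572-153375871 on the minus strand, and the S100P window at chr4:6693628-6693927 on the plus strand.
S100A8: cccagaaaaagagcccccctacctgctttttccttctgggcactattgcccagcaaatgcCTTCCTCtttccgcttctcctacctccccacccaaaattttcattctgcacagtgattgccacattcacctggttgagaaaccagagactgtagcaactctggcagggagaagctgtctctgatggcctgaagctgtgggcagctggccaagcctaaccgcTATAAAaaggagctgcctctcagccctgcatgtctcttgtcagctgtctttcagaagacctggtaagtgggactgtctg
S100A9: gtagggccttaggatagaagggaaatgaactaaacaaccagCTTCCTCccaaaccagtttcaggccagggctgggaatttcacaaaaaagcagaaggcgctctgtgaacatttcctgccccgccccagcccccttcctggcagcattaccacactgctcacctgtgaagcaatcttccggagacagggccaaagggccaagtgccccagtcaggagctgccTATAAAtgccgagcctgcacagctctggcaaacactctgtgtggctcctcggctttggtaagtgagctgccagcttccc
S100A12: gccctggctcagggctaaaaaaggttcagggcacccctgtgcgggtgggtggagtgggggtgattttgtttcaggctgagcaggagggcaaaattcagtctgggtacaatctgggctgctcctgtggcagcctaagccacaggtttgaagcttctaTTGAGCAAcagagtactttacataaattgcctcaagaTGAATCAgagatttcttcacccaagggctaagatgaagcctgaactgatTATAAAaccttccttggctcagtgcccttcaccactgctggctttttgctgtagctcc
S100P: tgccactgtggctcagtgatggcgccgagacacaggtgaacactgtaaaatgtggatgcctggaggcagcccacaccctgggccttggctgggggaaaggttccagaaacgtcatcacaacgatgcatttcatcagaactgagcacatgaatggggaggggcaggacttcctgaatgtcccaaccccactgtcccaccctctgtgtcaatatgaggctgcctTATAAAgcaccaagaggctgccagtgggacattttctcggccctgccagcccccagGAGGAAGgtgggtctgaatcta
Both strands were searched for TATAAA, for GAGGAAG (a PU.1 motif), for TTGCNNAA (a C/EBP motif) and for TGANTCA (an AP-1 motif), and matches of different motifs did not overlap in these windows. Counting the first transcribed base as 0, TATAAA began at -29 in S100A8, -29 in S100A9, -28 in S100P and -8 in S100A12. GAGGAAG was matched on the opposite strand at -190 in S100A8 and -209 in S100A9, where the capitals read CTTCCTC, and on the strand of the gene at 28 in S100P. S100A12 had a match to TTGCNNAA at -94, on the opposite strand, and to TGANTCA at -57, which reads the same on both strands. In windows not shown, TATAAA began at -31 in S100A4 and TTGCNNAA was matched at -33 in S100A11, on the opposite strand. The windows of S100A6 and S100A10 held no match. Of 35116 windows of the same length, 11.5% held TATAAA, 13.6% GAGGAAG, 10.5% TTGCNNAA and 7.71% TGANTCA. A match is a description of the letters and not a binding site.

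Values are log2 signals per probe set as the authors deposited them, changes are differences of group means on that scale ± standard error, and a gene was called when its limma p-value, adjusted over all genes tested in that comparison, was under 0.05. To be tested in a cell model, a gene needed its brightest probe set over percentile 40 of the array's values on 2 or more of that model's arrays. S100A4 and S100A8 in the human cells and S100a8, S100a6 and S100a10 in the mouse cells were read on probe sets whose identifiers end in _s_at, _a_at or _x_at, which may bind further transcripts. Within a cell model the comparisons with DMSO share the DMSO arrays. The markers fitted the lines in part. Percentile 40 is a low limit: in RS4;11, 13921 of 19775 genes lay over it on 2 or more arrays. A marker above it therefore says little about cell type by itself. On every DMSO array, 7 of 7 measured B-precursor markers lay above percentile 40 in RS4;11 and SEM and 6 of 7 in REH. All 6 measured myeloid progenitor markers did so in both MOLM-13 and mouse cells. Of 6 myeloid progenitor markers, 1 lay above it (CTSG) and 4 below it on every RS4;11 DMSO array. In SEM 2 lay above it (AZU1 and CTSG) and 4 below, and in REH 2 (MPO and CTSG) and 4. Of 10 measured monocyte and granulocyte markers, 5 lay above it and 4 below in RS4;11, 4 and 5 in SEM and 3 and 6 in REH. All 4 epithelial markers lay above it in the mouse cells, and 1 or 2 of 4 in each human line. On every MOLM-13 DMSO array, 3 of 7 B-precursor markers lay above it (CD79A, CD79B and RAG1) and 4 below it (PAX5, VPREB1, EBF1 and DNTT). In the mouse DMSO arrays Cd79a, Cd79b and Vpreb1 lay above it and Pax5, Ebf1, Dntt and Rag1 below. Of 4 T cell markers, CD3E and CD3G were below it on all DMSO arrays of the 5 models, CD3D was above it on all those of MOLM-13 and Cd2 on all those of the mouse cells. REH DMSO replicate 1 stood apart, with 9 genes at least 2 log2 above every other REH array (0 for each of the other 11 arrays). REH DMSO replicate 3 had a 3′ minus 5′ difference of 3.65 for the actin and 1.08 for the GAPDH control, and the REH DMSO arrays spanned 2.75 to 3.65 for actin against 2.36 to 2.87 on the treated REH arrays. In the mouse cells, combination replicates 2 and 3 had actin differences of 1.12 and 1.99 against 0.38 to 0.63 on the other mouse arrays.

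In DMSO, S100A4, S100A6, S100A10 and S100A11 lay high in MOLM-13 and in at least some lymphoid lines, while S100A8 and S100P lay above percentile 40 in MOLM-13 alone of the human lines. On the MOLM-13 DMSO arrays S100A4 was at percentiles 97.2, 97.6 and 96.8, S100A10 at 97, 97.2 and 96.4, S100A11 at 95.7, 95.6 and 95.4 and S100A6 at 93.9, 93.8 and 93.2. S100A8, S100A12 and S100P lay below percentile 40 on every array of RS4;11, SEM and REH. S100A9 lay beside that limit in those lines, at percentiles 43.6 and 44.3 in RS4;11, 43 and 39.5 in SEM and 35.4, 39.7 and 45.6 in REH. In MOLM-13 DMSO arrays S100A8 was at percentiles 76, 75.8 and 73.2, S100A9 at 57.9, 55.3 and 57.3 and S100P at 90.1, 90.3 and 91.8. S100A12 was at 27.2, 22.2 and 21.1 there, below the limit. The MOLM-13 columns have another distribution of values (array medians 6.18 to 6.25 against 5.54 to 5.66 on the other human arrays), so levels were not tested between MOLM-13 and the other lines.

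**Figure D1:**
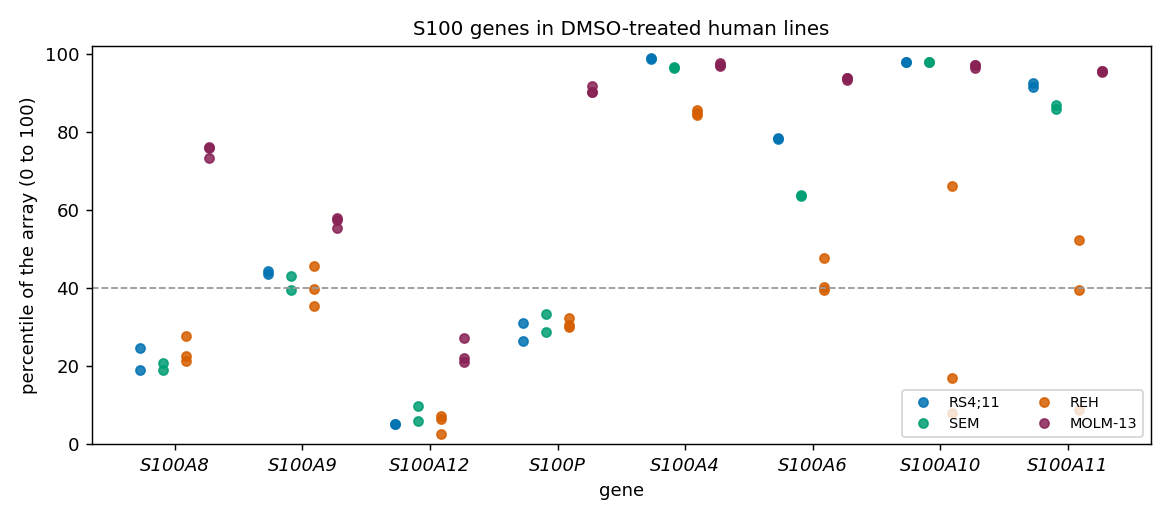
Percentile within the array (vertical axis, 0 to 100) of each S100 gene in the DMSO arrays of the 4 human lines, with 1 point per array and a dashed line at percentile 40. S100A8 and S100P lie above the line in MOLM-13 only, S100A10 is at 66.2 in REH DMSO replicate 1 and at 8.1 and 16.9 in the other REH DMSO arrays, and S100A4 is at 84.4 or higher on every DMSO array.

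Among the lymphoid lines, S100A4, the myosin-binding metastasis-associated member, was ordered RS4;11 above SEM above REH. Its log2 signal was 12.57 and 12.64 in RS4;11, 11.75 and 11.63 in SEM and 9.67, 9.58 and 9.76 in REH, with no overlap between lines. RS4;11 exceeded SEM by 0.92 ± 0.12 (limma, adjusted p = 0.000255) and SEM exceeded REH by 2.02 ± 0.11 (limma, adjusted p = 1.24e-07). S100A6 kept the same order, at 8.78 and 8.73 in RS4;11, 6.98 and 6.94 in SEM and 4.89, 4.85 and 5.38 in REH. The steps were 1.79 ± 0.17 (limma, adjusted p = 2.19e-05) and 1.92 ± 0.15 (limma, adjusted p = 2.69e-06). Of all genes tested, 13.1% were called higher in RS4;11 than in SEM, 20.9% higher in RS4;11 than in REH and 18.7% higher in SEM than in REH. Of 7 S100 genes tested, 2 were higher in RS4;11 than in SEM, and the same 4 (S100A4, S100A6, S100A10 and S100A11) were higher in RS4;11 and in SEM than in REH. S100A10 and S100A11 passed the filter through lines other than REH, and S100A8 and S100P through MOLM-13 alone. The counts are therefore no support as a set.

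S100A10, the annexin A2 partner, was at 12.2 and 12.13 in RS4;11 and 12.25 and 12.2 in SEM, ranges that overlap (difference -0.06 ± 1.07). In REH it was at 7.4, 3.08 and 3.57, and on the 9 treated REH arrays between 3.01 and 4.11. The difference from REH was 7.48 ± 0.97 for RS4;11 (limma, adjusted p = 0.000127) and 7.54 ± 0.97 for SEM (limma, adjusted p = 0.000112). S100A11 was at 10.84 and 10.65 in RS4;11, 9.79 and 9.91 in SEM and 5.88, 3.11 and 4.81 in REH. It exceeded REH by 6.14 ± 0.58 in RS4;11 and 5.25 ± 0.58 in SEM (limma, adjusted p = 1.17e-05 and 3.57e-05), while RS4;11 and SEM were not told apart (0.9 ± 0.64, adjusted p = 0.385). In REH DMSO both genes lay above percentile 40 on replicate 1 only, so they were tested through the lines where they are high, and the sizes of these differences are set against a level mostly not above background. The standard errors of both genes take in the wide spread of the REH DMSO arrays. Leaving out each DMSO array of RS4;11, SEM and REH in turn gave 6.68 to 8.84 for S100A10 in RS4;11 over REH.

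In MOLM-13 the calprotectin genes S100A8 and S100A9 rose with each treatment, and no member was called lower than DMSO. S100P with EPZ004777 and S100A4 and S100A12 with MI-2-2 were not called. Against DMSO, EPZ004777 raised 7 of 8 members tested (15.2% of all genes were called higher), MI-2-2 raised 6 of 8 (10.2%) and the combination raised 8 of 8 (23.4%). The median change over the 8 genes was 0.47, 0.33 and 0.8, beside 0.025, 0.02 and 0.003 over all genes. S100A12 passed the filter only through treated arrays, so its rise is part of why it was tested and the 8 genes are no support as a set. In bulk RNA, more cells of a type and more RNA per cell cannot be told apart.

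S100A8 was at 9.18, 9.12 and 8.75 in DMSO, 11.57, 11.43 and 11.57 with EPZ004777, 9.96, 10.08 and 10.12 with MI-2-2 and 12.79, 12.78 and 12.69 with the combination. The 4 groups did not overlap and stood in the order DMSO, MI-2-2, EPZ004777, combination. The changes from DMSO were 2.51 ± 0.1 for EPZ004777, 1.04 ± 0.1 for MI-2-2 and 3.73 ± 0.1 for the combination (limma, adjusted p = 6.22e-08, 5.83e-05 and 6.2e-10). The combination exceeded EPZ004777 by 1.23 ± 0.1 and MI-2-2 by 2.7 ± 0.1 (limma, adjusted p = 1.13e-05 and 2.69e-08). The second S100A8 probe set gave 2.5, 1.05 and 3.84.

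S100A9 was at 6.88, 6.61 and 6.79 in DMSO, 9.13, 8.91 and 9.05 with EPZ004777, 7.51, 7.61 and 7.61 with MI-2-2 and 10.37, 10.58 and 10.37 with the combination. The groups again did not overlap and had the order seen for its partner. Its changes were 2.27 ± 0.09, 0.82 ± 0.09 and 3.68 ± 0.09 (limma, adjusted p = 4.46e-08, 9.93e-05 and 2.72e-10). The sum of the single changes fell short of the combination by 0.59 ± 0.12 (interaction, limma, adjusted p = 0.0102), the only member with a called interaction in MOLM-13, where 12.8% of all genes had one. For S100A8 the same term was 0.19 ± 0.14 (adjusted p = 0.431), and whether both interactions differ was not tested. Over the 12 MOLM-13 arrays, which share their treatment groups, S100A8 and S100A9 correlated at r = 0.99.

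S100A12 was at 4.61, 4.3 and 4.21 in DMSO, 5.17, 5.39 and 5.54 with EPZ004777, 3.86, 4.21 and 4.17 with MI-2-2 and 5.6, 5.39 and 5.31 with the combination. Only 2 of the 12 arrays exceeded percentile 40, so these are levels at the edge of detection. EPZ004777 and the combination lay above DMSO by 0.99 ± 0.14 and 1.06 ± 0.14 (limma, adjusted p = 0.000334 and 6.55e-05), while MI-2-2 gave -0.29 ± 0.14 (adjusted p = 0.169). S100P followed another pattern, at 11.26, 11.27 and 11.52 in DMSO, 11.15, 11.17 and 11.16 with EPZ004777, 12.5, 12.35 and 12.01 with MI-2-2 and 11.78, 12.03 and 11.77 with the combination. The MI-2-2 arrays were the highest, with 1 of the combination arrays reaching into their range. S100P rose by 0.93 ± 0.12 with MI-2-2 and by 0.51 ± 0.12 with the combination (limma, adjusted p = 0.000382 and 0.00484), and EPZ004777 gave -0.19 ± 0.12 (adjusted p = 0.272). EPZ004777 lay below MI-2-2 by a difference of -1.13 ± 0.12 (limma, adjusted p = 0.000125), and the combination below MI-2-2 by -0.43 ± 0.12 (adjusted p = 0.0159). The last call was lost without MI-2-2 replicate 1 or 2 (adjusted p = 0.0605 and 0.0549) or without combination replicate 1 or 3 (0.0577 and 0.0584). The correlation of S100P with S100A8 over the 12 arrays was 0.03.

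**Figure D2:**
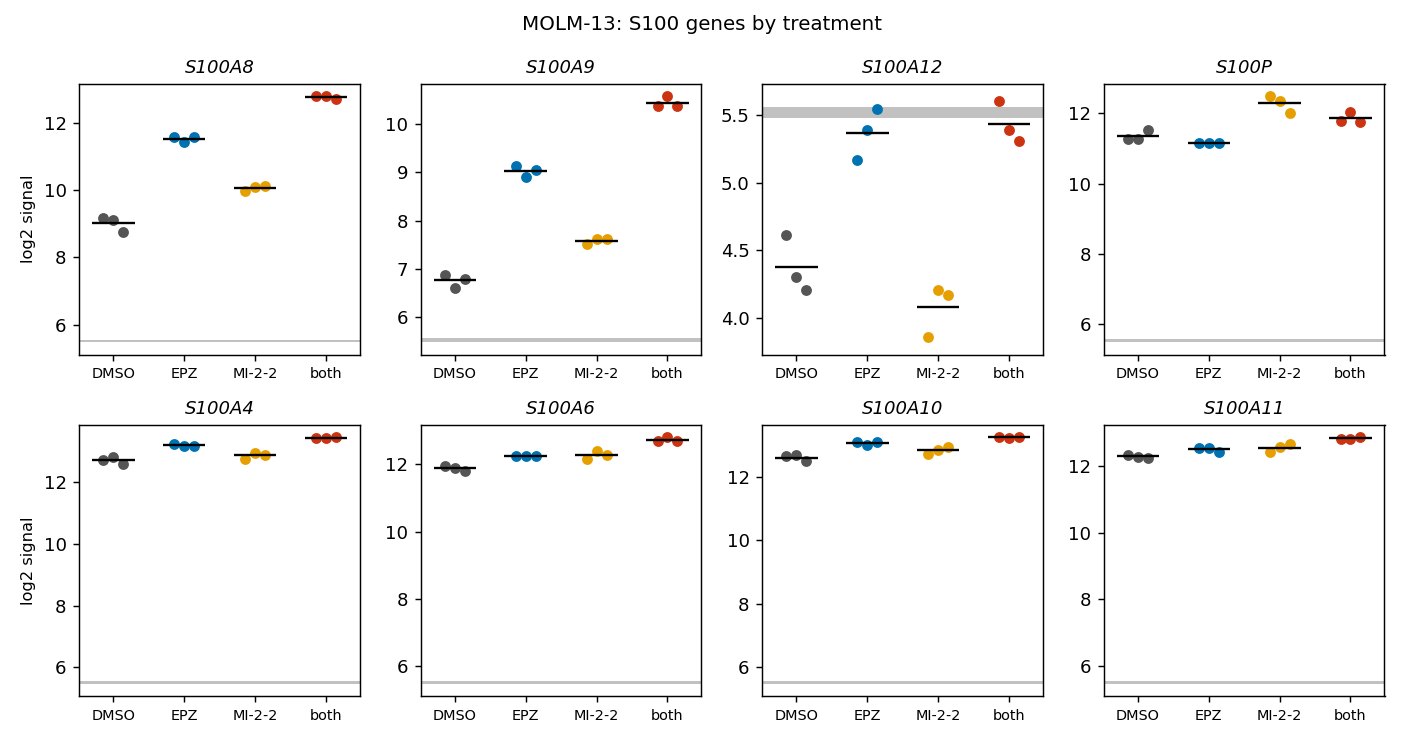
Log2 signal (vertical axis) of the 8 S100 genes in MOLM-13 by treatment (EPZ, EPZ004777; both, the combination), with 1 point per array, a bar at the group mean and a grey band over the arrays' percentile 40. S100A8 and S100A9 rise from DMSO to MI-2-2 to EPZ004777 to the combination, S100P is highest with MI-2-2, and S100A12 stays around or below the grey band; the vertical scales differ between panels.

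S100A4, S100A6, S100A10 and S100A11, all at high levels in DMSO, changed by at most 0.86 in MOLM-13 on the probe set used for each gene. S100A4 was at 12.69, 12.81 and 12.57 in DMSO, 13.23, 13.15 and 13.14 with EPZ004777, 12.75, 12.92 and 12.88 with MI-2-2 and 13.42, 13.43 and 13.44 with the combination. DMSO and MI-2-2 arrays overlapped, while the other groups lay above both. It rose by 0.48 ± 0.07 with EPZ004777 and 0.74 ± 0.07 with the combination (limma, adjusted p = 0.000366 and 4.91e-06), and MI-2-2 gave 0.16 ± 0.07 (adjusted p = 0.123, or 0.0485 without DMSO replicate 2). S100A6 was at 11.95, 11.9 and 11.79 in DMSO, 12.24, 12.25 and 12.24 with EPZ004777, 12.16, 12.39 and 12.28 with MI-2-2 and 12.71, 12.81 and 12.7 with the combination. Its rises were 0.36 ± 0.06, 0.4 ± 0.06 and 0.86 ± 0.06 (limma, adjusted p = 0.00194, 0.00175 and 1.26e-06), each group lying above all DMSO arrays. Its second, dim probe set gave -0.01, 0.44 and 1.09, and with the mean of both probe sets the EPZ004777 change was 0.18 and lost its call (adjusted p = 0.179).

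S100A10 rose by 0.47 ± 0.07 with EPZ004777, 0.24 ± 0.07 under MI-2-2 and 0.64 ± 0.07 under both compounds (limma, adjusted p = 0.000441, 0.0307 and 1.43e-05). Its DMSO arrays read 12.64, 12.67 and 12.48 and its combination arrays 13.24, 13.22 and 13.24, without overlap. The MI-2-2 call was lost without DMSO replicate 3 (0.18, adjusted p = 0.108) and without MI-2-2 replicate 2 or 3 (adjusted p = 0.0855 and 0.0917). The second S100A10 probe set gave 0.4, 0.24 and 0.96 with EPZ004777, MI-2-2 and the combination. S100A11 rose by 0.22 ± 0.06, 0.26 ± 0.06 and 0.54 ± 0.06 (limma, adjusted p = 0.021, 0.0137 and 3.08e-05), from 12.32, 12.28 and 12.25 in DMSO to 12.81, 12.81 and 12.86 with the combination. Its EPZ004777 call was lost without DMSO replicate 3 (adjusted p = 0.0694) or EPZ004777 replicate 1 or 2 (0.0767 and 0.0714), and its MI-2-2 call without DMSO replicate 3 (0.0505). In a fit shared by the 44 human arrays none of the 3 changes of either gene was called (adjusted p = 0.276 or higher), with the REH arrays in the shared spread.

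Markers of myeloid maturation moved with these genes in MOLM-13, and their part in the S100 changes was not tested. With the combination 8 of 10 measured monocyte and granulocyte markers were called higher and 1 lower (23.4% and 25.5% of all genes), with CD14, the lipopolysaccharide co-receptor, at 4.74 ± 0.09, MNDA at 3.52 ± 0.07 and CAMP, a granule antimicrobial peptide, at 2.93 ± 0.15. The mean of the 10 markers was 8.25 to 8.29 on the DMSO arrays and 9.99 to 10.1 on the combination arrays. All 6 tested myeloid progenitor markers were also called higher, led by MPO at 3.26 ± 0.07.

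In the mouse MLL-AF9 cells, S100a6 gave the widest change, and the mouse calprotectin genes rose from levels already near the top of the array. Against DMSO, each compound raised the same 3 of 5 genes, S100a6, S100a8 and S100a9 (4.22% of all genes called higher with EPZ004777 and 3.24% with MI-2-2), and the combination raised 5 of 5 (28.5%). The median change over the 5 genes was 0.95, 0.94 and 1.67, beside -0.027, -0.017 and -0.101 over all genes.

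S100a6 was at 6.82, 6.77 and 6.98 in DMSO, 8.63, 8.69 and 7.8 with EPZ004777, 7.97, 7.88 and 8.2 with MI-2-2 and 11.96, 12.12 and 11.92 with the combination. The arrays of the single compounds overlapped each other and lay above DMSO, and the combination arrays lay far above both. The changes were 1.52 ± 0.21, 1.16 ± 0.21 and 5.14 ± 0.21 (limma, adjusted p = 0.0012, 0.00726 and 9.23e-09). The combination exceeded the sum of the single changes by 2.47 ± 0.29 (interaction, limma, adjusted p = 8.67e-05), where 48.2% of all genes had a called interaction. With combination replicate 1 alone in its group, assumed to vary like the others, the S100a6 change was 5.1 and the interaction 2.42 (adjusted p = 0.000812), and 5 of 5 genes were still called with the combination.

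S100a4 was at 6.91, 7.49 and 7.53 in DMSO, 8.47, 8.96 and 7.34 with EPZ004777, 7.99, 7.65 and 7.78 with MI-2-2 and 11.06, 10.09 and 9.63 with the combination. EPZ004777 replicate 3 lay among the DMSO arrays, and only the combination was called, at 2.95 ± 0.42 (limma, adjusted p = 0.00011), beside 0.95 ± 0.42 and 0.5 ± 0.42 for the single compounds. Its interaction was 1.51 ± 0.59 (adjusted p = 0.0565), and 1.83 with a call (adjusted p = 0.0296) without combination replicate 3 or 1.86 (0.0263) without EPZ004777 replicate 2. With combination replicate 1 alone the S100a4 change was 3.75 and its interaction 2.31 (adjusted p = 0.000232 and 0.0141). S100a10 was at 11.81, 11.11 and 11.36 in DMSO and 12.22, 12.3 and 11.87 with the combination, a rise of 0.7 ± 0.17 (limma, adjusted p = 0.00423). EPZ004777 gave 0.6 ± 0.17 (adjusted p = 0.0799), called without DMSO replicate 1 (0.79, adjusted p = 0.0133) and without combination replicate 1 (0.6, 0.0448), and MI-2-2 gave -0.17 ± 0.17. The mean of its 3 probe sets gave 0.42 for the combination and no call (adjusted p = 0.0567).

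S100a8 was at 12.61, 13.1 and 13.18 in DMSO, 14.07, 14.11 and 14.12 with EPZ004777, 14.04, 14.03 and 13.99 with MI-2-2 and 14.63, 14.6 and 14.65 with the combination. S100a9 was at 13.07, 13.55 and 13.56 in DMSO, 14.36, 14.37 and 14.3 with EPZ004777, 14.33, 14.36 and 14.3 with MI-2-2 and 14.59, 14.77 and 14.83 with the combination. For both genes every treated array lay above every DMSO array. The single compounds overlapped each other for S100a9, while for S100a8 the EPZ004777 arrays lay just above the MI-2-2 arrays (difference 0.08 ± 0.13, adjusted p = 0.999). The highest probe set of each mouse array was between 14.69 and 14.83, so little range was left above the combination values.

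S100a8 rose by 1.14 ± 0.13, 1.06 ± 0.13 and 1.67 ± 0.13 (limma, adjusted p = 0.000336, 0.000688 and 1.16e-06) and S100a9 by 0.95 ± 0.13, 0.94 ± 0.13 and 1.34 ± 0.13 (limma, adjusted p = 0.00123, 0.00158 and 6.34e-06). Their interactions were below 0, at -0.53 ± 0.18 and -0.55 ± 0.18 (limma, adjusted p = 0.0343 and 0.0298), and the part that the top of the scale has in them was not tested. The S100a8 interaction lost its call (adjusted p = 0.0512 to 0.0689) without any 1 of the EPZ004777 or MI-2-2 arrays or of combination replicates 2 and 3, and the S100a9 interaction (0.0536 to 0.0611) without EPZ004777 replicate 1 or 2 or any 1 of the MI-2-2 arrays.

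**Figure D3:**
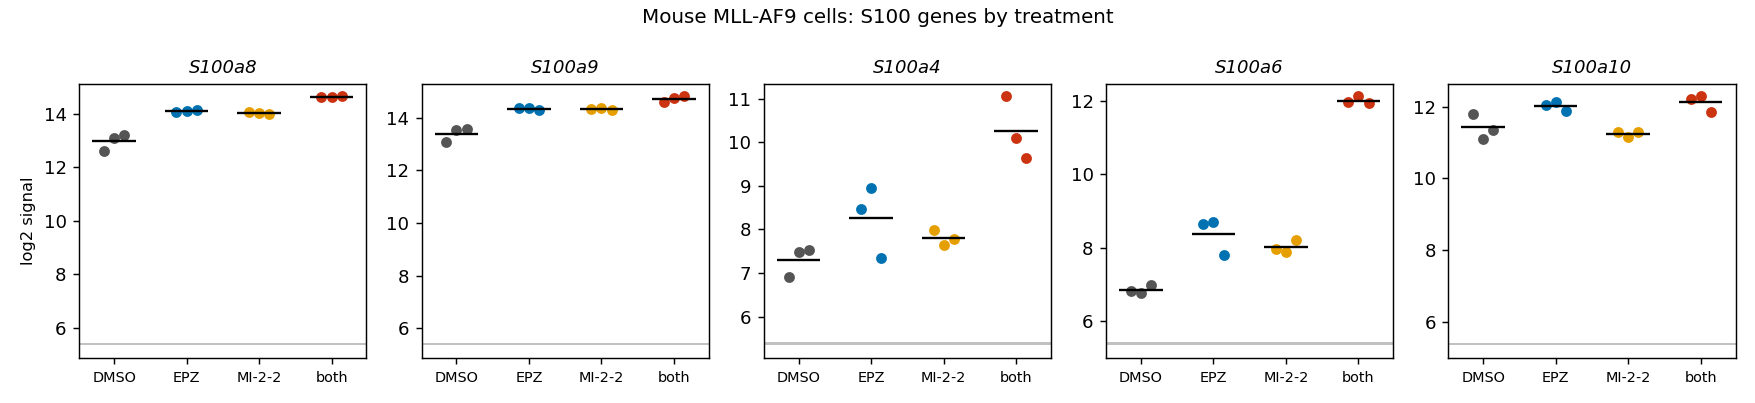
Log2 signal (vertical axis) of the 5 S100 genes in mouse MLL-AF9 cells by treatment (EPZ, EPZ004777; both, the combination), with 1 point per array, a bar at the group mean and a grey band over the arrays' percentile 40. S100a6 and S100a4 are highest with the combination, while S100a8 and S100a9 stay between 12.61 and 14.83; the vertical scales differ between panels.

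In the mouse combination 7 of 8 measured monocyte and granulocyte markers were called higher (28.5% of all genes), led by Ltf, the granule protein lactoferrin, at 7.57 ± 0.23. The mean of these markers was 8.79 to 9.67 on the DMSO arrays and 12.2 to 12.58 on the combination arrays, and its part in the S100 changes was not tested.

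In SEM the broadly expressed genes S100A4, S100A6, S100A10 and S100A11 accounted for all calls. EPZ004777 raised 3 of 5 members tested (4.7% of all genes called higher), MI-2-2 raised 3 (9.3%) and the combination raised 4 (14.4%), and none fell. The median change over the 5 genes was 0.27, 0.63 and 0.79, beside -0.046, 0.006 and -0.018 over all genes. S100A9 stayed near percentile 40, with changes of 0.06 ± 0.11, 0.18 ± 0.13 and -0.11 ± 0.13, none called.

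S100A6 was at 6.98 and 6.94 in DMSO, 7.7, 7.5 and 7.57 with EPZ004777, 7.79 and 8.12 with MI-2-2 and 8.77 and 8.81 with the combination, with no overlap between groups. The changes were 0.63 ± 0.1, 0.99 ± 0.11 and 1.83 ± 0.11 (limma, adjusted p = 0.0111, 0.000987 and 2.03e-05). The EPZ004777 call was lost without DMSO replicate 2 or 3 (adjusted p = 0.0775 and 0.0871) and with the mean of both probe sets (0.21, adjusted p = 0.178). S100A4 was at 11.75 and 11.63 in DMSO, 12.22, 12.13 and 12.16 with EPZ004777, 12.62 and 12.64 with MI-2-2 and 12.96 and 12.92 with the combination, again with no overlap. It rose by 0.48 ± 0.07, 0.94 ± 0.07 and 1.25 ± 0.07 (limma, adjusted p = 0.00485, 0.000148 and 1.35e-05), and without DMSO replicate 3 the EPZ004777 call was lost (0.42, adjusted p = 0.0567).

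S100A11 was at 9.79 and 9.91 in DMSO, 10.11, 9.79 and 10.09 with EPZ004777, 10.58 and 10.37 with MI-2-2 and 10.62 and 10.66 with the combination, so that EPZ004777 arrays overlapped DMSO and the others did not. MI-2-2 gave 0.63 ± 0.13 and the combination 0.79 ± 0.13 (limma, adjusted p = 0.0117 and 0.00245), and EPZ004777 0.15 ± 0.11 (adjusted p = 0.475). The MI-2-2 call was lost without DMSO replicate 2 (adjusted p = 0.0773) or MI-2-2 replicate 1 (0.0732). S100A10 was at 12.25 and 12.2 in DMSO, 12.55, 12.48 and 12.47 with EPZ004777, 12.46 and 12.41 with MI-2-2 and 12.63 and 12.63 with the combination. All treated arrays lay above DMSO, by 0.27 ± 0.06 with EPZ004777 and 0.4 ± 0.07 with the combination (limma, adjusted p = 0.0311 and 0.00292) and by 0.21 ± 0.07 with MI-2-2 (adjusted p = 0.0652). The EPZ004777 call was lost in 7 of 9 fits without 1 array, those without any 1 DMSO, EPZ004777 or combination array (adjusted p from 0.0501 to 0.183). The second S100A10 probe set gave 0.57, 0.01 and 0.9 with EPZ004777, MI-2-2 and the combination.

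The actin control differed with treatment in SEM. The 3′ minus 5′ difference lay between 1.83 and 1.93 on arrays of MI-2-2 or both compounds and 2.32 to 2.48 on the EPZ004777 and DMSO arrays, without overlap. With that difference as a covariate the S100A6 change was 1.74 for MI-2-2 and 2.55 for the combination and the S100A4 change 0.8 and 1.12, and no member kept a call in either comparison (adjusted p = 0.227 or higher), while over all genes limma called 0 for MI-2-2 and 14 for the combination. RNA quality and treatment cannot be told apart for those arrays. Monocyte and granulocyte markers moved as well: 7 of 10 measured (8 of them tested) were called higher with the combination, beside 14.4% of all genes, led by LYZ at 6.33 ± 0.12, VCAN at 4.1 ± 0.14 and ITGAM at 3.36 ± 0.12, and their part in the S100 changes was not tested. CD14 and LTF stayed below percentile 40 on both combination arrays.

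In RS4;11 the calls were for S100A10 and S100A4. S100A10 was at 12.2 and 12.13 in DMSO, 12.42, 12.39 and 12.43 with EPZ004777, 12.3, 12.32 and 12.27 with MI-2-2 and 12.36, 12.46 and 12.45 with the combination, every treated array lying above DMSO. EPZ004777 raised it by 0.25 ± 0.06 (limma, adjusted p = 0.0344), the only call among 5 members tested (4.58% of all genes called higher). The combination raised S100A10 by 0.26 ± 0.06 and S100A4 by 0.25 ± 0.06 (limma, adjusted p = 0.0107 and 0.0142), 2 of 5 members (11.2% called higher). The second S100A10 probe set gave 0.11, 0.31 and 0.38 with EPZ004777, MI-2-2 and the combination. For MI-2-2 limma called 0 of 5 members, beside 5.91% of all genes called higher, and 2 of 5 had an unadjusted p under 0.05.

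S100A4 was at 12.57 and 12.64 in DMSO, 12.64, 12.64 and 12.62 with EPZ004777, 12.74, 12.84 and 12.88 with MI-2-2 and 12.85, 12.86 and 12.87 with the combination. The EPZ004777 arrays overlapped DMSO and the others lay above. MI-2-2 gave 0.21 ± 0.06 (limma, adjusted p = 0.0501), which was called without MI-2-2 replicate 1 (0.25, adjusted p = 0.0415). The EPZ004777 call of S100A10 was lost without any 1 of the DMSO or EPZ004777 arrays or of MI-2-2 replicates 1 and 3 (adjusted p from 0.0514 to 0.264), and the combination calls without DMSO replicate 3 for S100A10 (adjusted p = 0.102) and DMSO replicate 2 for S100A4 (0.115). S100A6, S100A9 and S100A11 were called in none of the 3 comparisons, with changes between -0.2 and 0.26.

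In REH, the line without a KMT2A fusion, S100A4 was the member that changed. It was at 9.67, 9.58 and 9.76 in DMSO, 10.6, 10.47 and 10.38 with EPZ004777, 10.13, 10.07 and 10.08 with MI-2-2 and 10.57, 10.77 and 10.65 with the combination. Every treated array lay above every DMSO array, and EPZ004777 and combination arrays overlapped each other above MI-2-2. The rises in S100A4 were 0.81 ± 0.09 with EPZ004777 and 0.99 ± 0.09 with the combination (limma, adjusted p = 0.000323 and 5.11e-05). MI-2-2 gave 0.42 ± 0.09 (adjusted p = 0.0435), a call lost in 10 of 12 fits without 1 array, those without DMSO replicate 1 or any 1 treated array (adjusted p from 0.0529 to 0.182), where the change stayed between 0.41 and 0.43. Each comparison called 1 of 3 members tested, beside 2.94%, 0.401% and 4.37% of all genes called higher, and S100A6 and S100A9 were near percentile 40 and not called. The actin difference also moved between the REH DMSO and treated arrays, and with it as a covariate the S100A4 change was 0.53 for MI-2-2 (adjusted p = 0.227), and still called at 0.89 for EPZ004777 and 1.08 for the combination. S100A10 and S100A11 were above percentile 40 only on REH DMSO replicate 1, at 7.4 and 5.88, and were not tested in REH.

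Interactions, the combination change minus the sum of the single changes, were called by limma for 0 members in RS4;11, SEM and REH, beside 1.93%, 0.969% and 0% of all genes. At an unadjusted p under 0.05 there were 1, 0 and 0 such members.

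**Figure D4:**
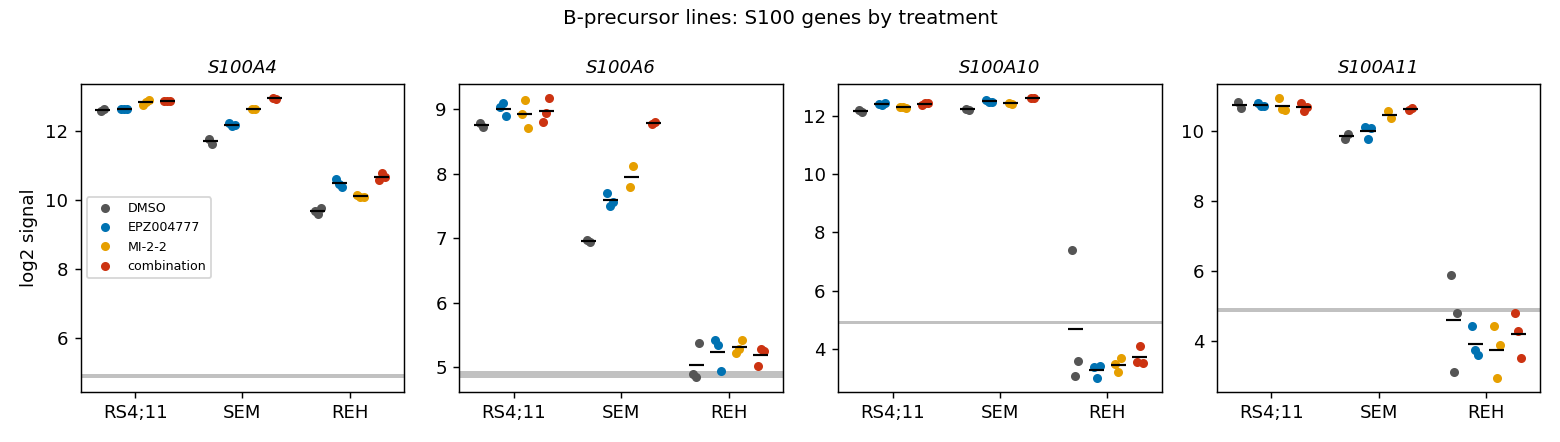
Log2 signal (vertical axis) of S100A4, S100A6, S100A10 and S100A11 in RS4;11, SEM and REH, coloured by treatment, with 1 point per array, a bar at the group mean and a grey band over the arrays' percentile 40. S100A6 climbs from 6.94 to 8.81 in SEM, S100A4 rises in SEM and REH, and the REH DMSO array at 7.4 stands alone in the S100A10 panel; the vertical scales differ between panels.

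The effects of the same doses and duration were compared across the B-precursor lines by fitting their 32 arrays together. The S100A4 response to EPZ004777 was lower in RS4;11 and SEM, taken as their mean, than in REH, by -0.56 ± 0.08 (limma, adjusted p = 0.00012, 5.25% of all genes called), and to the combination by -0.24 ± 0.08 (adjusted p = 0.0444, 20.7% called). With the combination S100A4 rose by 1.25 in SEM, 0.99 in REH and 0.25 in RS4;11, so only RS4;11 lay below REH. The S100A6 response to the combination was higher in the mean of the fusion lines by 0.88 ± 0.18 (limma, adjusted p = 0.00093). That mean rests on SEM, where S100A6 changed by 1.83, against 0.22 in RS4;11 and 0.15 in REH, neither called. In REH S100A6 lay near the filter limit, at percentiles 39.6 to 47.8. The mean hides a difference between both fusion lines, because the S100A4 response was higher in SEM than in RS4;11 by 0.46 ± 0.1 with EPZ004777, 0.73 ± 0.11 under MI-2-2 and 1 ± 0.11 under both compounds (limma, adjusted p = 0.0107, 5.77e-05 and 2.47e-07). For S100A6 the same difference was 0.82 ± 0.23 with MI-2-2 and 1.61 ± 0.23 with the combination (limma, adjusted p = 0.0296 and 1.64e-05). Of all genes, 3.95%, 6.77% and 12.9% were called in the comparison of SEM with RS4;11 for EPZ004777, MI-2-2 and the combination. For MI-2-2 limma called 0 of 5 members between the fusion lines and REH (13.6% of all genes called), and 1 had an unadjusted p under 0.05.

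Several of these calls rest on single arrays. The S100A4 difference between the fusion lines and REH for the combination was lost in 20 of 32 fits without 1 array (-0.25 to -0.19, adjusted p from 0.0505 to 0.155). It was kept without REH DMSO replicate 3, any EPZ004777 array, MI-2-2 replicate 2 or combination replicate 1 of REH, without RS4;11 DMSO replicate 2 or MI-2-2 replicate 1 or 3, and without SEM DMSO replicate 3 or EPZ004777 replicate 1 or 2. With the mean of probe sets the S100A6 difference for the combination was 0.34 and lost its call (adjusted p = 0.0533). The S100A4 difference for EPZ004777 between SEM and RS4;11 was lost without RS4;11 DMSO replicate 3 (0.42, adjusted p = 0.0916) or SEM DMSO replicate 3 (0.4, 0.0968). The S100A6 difference for MI-2-2 was lost without any 1 of the 4 DMSO arrays of those lines, RS4;11 MI-2-2 replicate 1 or 3 or SEM MI-2-2 replicate 3 (0.66 to 0.84, adjusted p from 0.0541 to 0.187). For S100A10 and S100A11 leaving out REH DMSO replicate 2 turned an uncalled difference between the fusion lines and REH into a called one in all 3 treatments (S100A10 2.48, 2.2 and 2.08; S100A11 1.5, 1.91 and 1.51), as did leaving out REH DMSO replicate 3 for S100A10 with EPZ004777 (2.24, adjusted p = 0.0465). Both genes lay below percentile 40 on all REH arrays but DMSO replicate 1.

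**Figure D5:**
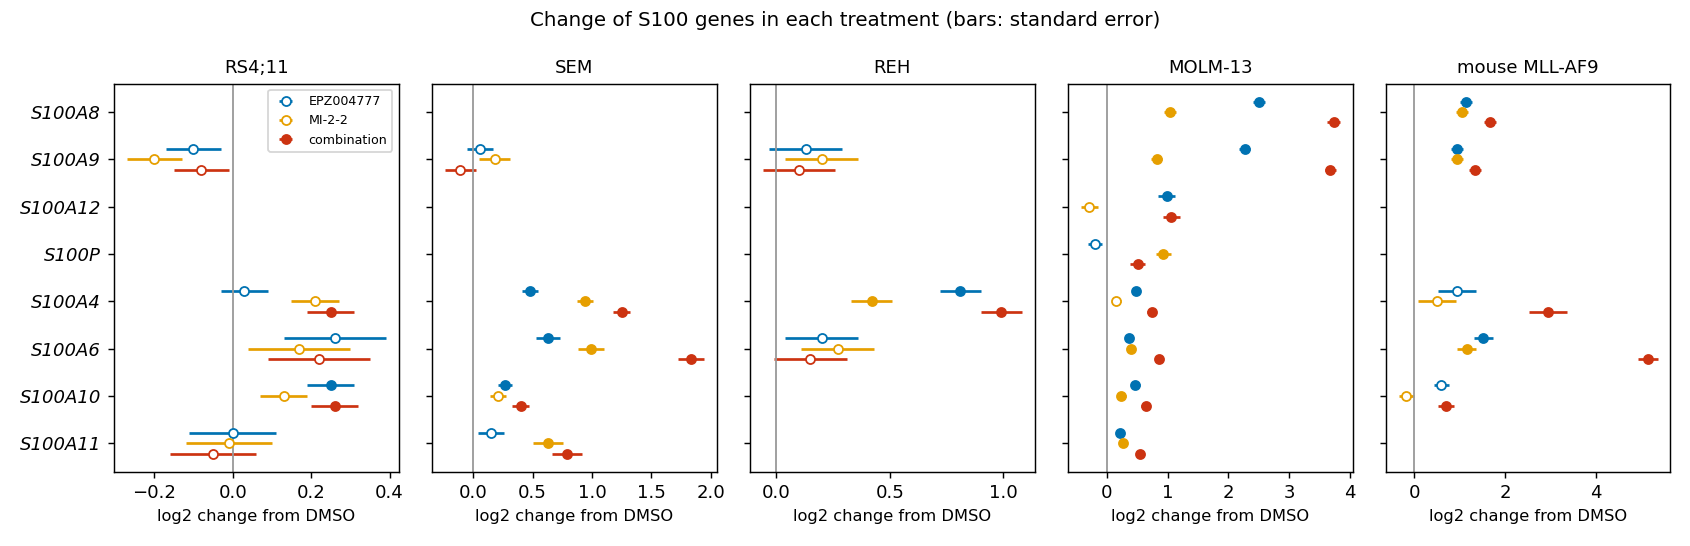
Log2 change from DMSO (horizontal axis) ± standard error of each S100 gene tested in the 5 cell models, coloured by treatment, with filled points for adjusted p under 0.05 in limma and open points otherwise. The horizontal scale differs between models: changes reach 0.26 in RS4;11, 1.83 in SEM, 0.99 in REH, 3.73 in MOLM-13 and 5.14 in mouse cells.

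Genes around the S100 proteins were taken from lists of binding partners (11 genes), receptors (8 genes) and other S100 genes (12 genes). In MOLM-13 with the combination, 8 of 11 partners were called higher and 1 lower (23.4% and 25.5% of all genes), with ANXA1, the annexin bound by S100A11, at 3.02 ± 0.11, ANXA6 at 1.27 ± 0.15 and AHNAK at 0.64 ± 0.07. ANXA2, which pairs with S100A10, rose by 0.41 ± 0.06 with EPZ004777 and fell by 0.31 ± 0.06 with MI-2-2 there. In SEM with the combination 4 of 11 partners were called higher and 1 lower (14.4% and 15.2% of all genes), with ANXA1 at 3.48 ± 0.15. In REH AHNAK rose by 0.88 ± 0.11, 0.98 ± 0.11 and 1.46 ± 0.11 with EPZ004777, MI-2-2 and the combination, and S100A10 lay below percentile 40 on all REH arrays but DMSO replicate 1. In the mouse combination 6 of 10 partners were called higher and 2 lower (28.5% and 36.2% of all genes), with Anxa1 at 2.77 ± 0.23, Ahnak at 2.43 ± 0.46 and Cacybp, the S100A6 partner, at -1.59 ± 0.09.

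Among the receptors, TLR4, which calprotectin acts on, rose in MOLM-13 by 1.47 ± 0.07 with EPZ004777, 1.64 ± 0.07 under MI-2-2 and 2.43 ± 0.07 under both compounds, and CD36, a fatty acid carrier, by 1.83 ± 0.12, 0.52 ± 0.12 and 2.76 ± 0.12. LY96, the TLR4 co-receptor MD-2, gave -0.47 ± 0.12 with MI-2-2 and -0.9 ± 0.12 with the combination. Of 7 receptors tested with the combination, 5 were called higher and 1 lower in MOLM-13 (23.4% and 25.5% of all genes), 3 higher in SEM (14.4%) and 2 higher in RS4;11 (11.2%). In REH limma called 0 of 7, and 1 had an unadjusted p under 0.05. In SEM TLR4 rose by 2.87 ± 0.2 and LY96 by 0.74 ± 0.09 with the combination, although S100A8 was below percentile 40. In the mouse combination 5 of 8 receptors were called higher and 1 lower (28.5% and 36.2% of all genes), with Ager, the RAGE gene, at 2.94 ± 0.46. Of the other S100 genes, 1 of 4 tested in MOLM-13 was called higher with the combination (S100A2, 0.37 ± 0.07), near the 23.4% of all genes. For the mouse cells only S100a1, known from muscle, is described, and it rose by 1.13 ± 0.15, 0.76 ± 0.15 and 1.79 ± 0.15.

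The genes most like each member were sought by Pearson correlation over the 44 human arrays, after centring each gene on its mean in each line, among 15845 genes. The points share their treatment groups, so the values are a description and carry no p. S100A8 was most like HP (haptoglobin), TLR8 and QPCT, each at r = 0.97, and S100A9 most like CAMP and SLPI at 0.97 and NME8 at 0.96. S100A10 was most like CD44, VAMP8 and SCD at 0.95. S100A4 was most like NRGN (0.9), DBI (0.89) and SAMHD1 (0.88), and S100A6 most like IFNGR2 (0.88), PRKCB and CD300LF (0.87). S100A12 was most like CLC (0.9), SRPX and GNLY (0.89), S100A11 most like BASP1 (0.78), GLA (0.72) and SCD (0.71), and S100P most like NLRP12 (0.72), GATA2-AS1 and ZNF844 (0.71). On REH DMSO replicate 1 S100A10 was at 7.4 and S100A11 at 5.88, against at most 4.11 and 4.81 on the other REH arrays. The part of that array in the r values of both genes was not tested. S100A8, S100A12 and S100P lay below percentile 40 on every array of RS4;11, SEM and REH. Within SEM (9 arrays), S100A4 and S100A6 correlated at r = 0.97.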

How the data were processed

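Total RNA of 56 samples was amplified with the Nugen Ovation system, per the labels, and hybridized to human (44) or mouse (12) Affymetrix arrays. The authors deposited 1 log2 value for each probe set and array. RMA, affy and R 3.0.2 are named in the submitters' processing notes, and the values were used without further normalization. Probe sets were joined to symbols through the platform annotation, and those with several symbols or none were left out (human 41097 of 54675 kept, mouse 34958 of 45101). A gene was read on the probe set with its highest mean in the fit, and tested where that lay over percentile 40 of an array's values on 2 or more arrays. Each cell model was fitted in limma 3.58.1 under R 4.3.3 (lmFit, eBayes) with 1 coefficient per group, with Benjamini-Hochberg adjustment over all genes and calls under 0.05. DMSO levels were fitted over the 10 human DMSO arrays, and only contrasts among RS4;11, SEM and REH are given because the MOLM-13 columns have another distribution.

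All members, their probe sets and up to 3 called genes of each list per comparison could be named, and the members and lists were chosen with earlier results of these data known. The code was tested on simulated data. Alternatives were no filter, another quantile normalization, the mean of probe sets or each probe set, replicate number as a block, a fit of 44 arrays, actin or GAPDH 3′ minus 5′ covariates, leaving out each array or the arrays that stand apart, and, chosen after seeing the data, a fit of 7 DMSO arrays. The contrast of SEM with RS4;11 was also added after seeing the data. Replicate numbers did not pair the arrays: deviations of same-numbered arrays correlated at a median of -0.05 in RS4;11, -0.11 in SEM, -0.09 in REH, -0.04 for MOLM-13 and 0.1 for the mouse model, and some pairs lay under 0.1 in each.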

Additional observations from a re-analysis of the deposited data

Results flagged for a closer look

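The effect of a treatment on S100A4 or S100A6 differed between lines treated at the same doses and for the same time in 8 tests (limma, adjusted over all genes). For S100A4, the REH effect subtracted from the average of both fusion lines (RS4;11, SEM) gave -0.56 with EPZ004777 (adjusted p = 0.00012) and -0.24 with the combination (0.0444), and the effect in SEM minus that in RS4;11 was 0.46, 0.73 and 1 with EPZ004777, MI-2-2 and the combination (adjusted p = 0.0107, 5.77e-05 and 2.47e-07). For S100A6, the first difference was 0.88 with the combination (adjusted p = 0.00093) and the other 0.82 with MI-2-2 (0.0296) and 1.61 with the combination (1.64e-05). With the combination both genes rose most in SEM, S100A6 was called in SEM alone of these lines, and the S100A4 change in REH lay between those in SEM and RS4;11. In SEM the actin 3′ minus 5′ difference also moved with MI-2-2 and the combination, and in REH between DMSO and treated arrays. The part of the actin difference in these 8 results was not tested. No group had 4 or more arrays, so single arrays were not tested for distance from their group.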

How the results depend on the processing

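On the probe set used for each gene, or the mean of its probe sets, no called S100 change turned its direction under an alternative run, while the dim second probe set of S100A6 gave -0.01 with EPZ004777 in MOLM-13. In SEM that probe set, below percentile 40 on every array and not tested, averaged 3.73 with EPZ004777 and 3.93 in DMSO. Of the single gene values recomputed 4592 kept their side of the threshold, 210 lost a call and 38 gained one. The cause of a lost or gained call was not tested. Numbers of S100 genes called moved as follows. For MI-2-2 in REH the number went from 1 to 0 with the actin covariate, with each probe set tested, with no filter, without DMSO replicates 1 and 3 together and with the replicate block. For EPZ004777 in RS4;11 it went from 1 to 0 with the actin covariate, each probe set tested, the fit of 44 arrays, the mean of probe sets, no filter and the replicate block. For MI-2-2 in RS4;11 it went from 0 to 2 with the mean of probe sets and to 1 with quantile normalization again, and for the combination in RS4;11 from 2 to 1 in the fit of 44 arrays. In SEM it went to 0 for MI-2-2 and for the combination with the actin covariate, and for the combination from 4 to 2 in the fit of 44 arrays. The SEM minus RS4;11 effect of MI-2-2 went from 2 to 1 with the mean of probe sets, and the RS4;11 and SEM minus REH effect of the combination from 2 to 1 with the mean of probe sets, no filter and the replicate block. The replicate block moved no other number of S100 genes called by more than 1.5 times.

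Leaving out each array in turn gave 0 to 1 genes called for EPZ004777 in RS4;11, 0 to 1 for MI-2-2 and 1 to 2 for the combination. It gave 0 to 3, 2 to 3 and 4 to 4 in SEM, and 1 to 1, 0 to 1 and 1 to 1 in REH. In MOLM-13 it gave 6 to 7, 4 to 7 and 8 to 8, with 1 to 1 for the interaction, and in the mouse cells 3 to 4, 3 to 3 and 5 to 5, with 1 to 3 for the interaction. The calls over all genes moved in these fits as well. They were 308 to 1058, 19 to 1314 and 473 to 2028 in REH and 2877 to 4287, 1829 to 2715 and 6204 to 7260 in MOLM-13. In the mouse cells they were 456 to 1769, 416 to 1688 and 7764 to 10236. Numbers over all genes are not given for RS4;11 and SEM, where some fits left 1 array in a group. The interactions in RS4;11, SEM and REH gave 0 to 0. The effects in RS4;11 and SEM minus REH gave 1 to 3, 0 to 2 and 1 to 3 for EPZ004777, MI-2-2 and the combination, and the effects in SEM minus RS4;11 gave 0 to 1, 1 to 2 and 2 to 2. DMSO levels gave 2 to 2 for RS4;11 against SEM, 4 to 5 for RS4;11 against REH and 4 to 4 for SEM against REH. For the DMSO levels, only arrays of RS4;11, SEM and REH were left out, not those of MOLM-13 in the same fit. Where an array was left alone in its group it was assumed to vary like the other groups. Genes near percentile 40 (S100A9 in the lymphoid lines, S100A6 in REH, S100A12 in MOLM-13) have signals too close to background to show small changes.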
